A study of Oryctolagus cuniculus with 12 samples.

Results

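The genes of neutrophil alarmins, neutrophil receptors, and the cytosolic part of the phagocyte oxidase were examined in rabbit conjunctiva after glaucoma filtration surgery. Members were the rows of the deposited gene table whose name equals S100A8, S100A9, S100A12, CSF3R, TREM1, FPR1, FPR2, NCF1, or NCF4. Of these 9 names, 8 had a row among the 20566 genes of the table. No row was named TREM1. The row LOC100349504 is annotated as triggering receptor expressed on myeloid cells 1. It was found by its annotation after the table had been seen, and its values are given beside the 8 members without being counted among them.

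Neutrophils are the most abundant white blood cells of an early wound. S100A8 and S100A9 form calprotectin, a calcium- and zinc-binding complex of the neutrophil cytosol that acts as an alarm signal once released, and S100A12 is a related alarmin that binds the receptor RAGE. CSF3R is the receptor of granulocyte colony-stimulating factor, FPR1 and FPR2 guide neutrophils along formylated peptides of bacteria and mitochondria, and TREM1 amplifies signals of other innate receptors. NCF1 (p47phox) and NCF4 (p40phox) are cytosolic subunits of the NADPH oxidase, which makes superoxide after they join the membrane-bound part of the enzyme. Monocytes and macrophages also carry several of these genes, and stressed squamous epithelium can make S100A8 and S100A9.

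The tissue came from female Japanese white rabbits aged 12 to 14 weeks, with no genetic change stated. The right eye underwent trabeculectomy (TL), which lets aqueous humor out below a flap of sclera to form a bleb beneath the conjunctiva. During surgery mitomycin C was applied against scarring, and a steroid injection (betamethasone) and an antibiotic ointment were given at its end. Conjunctiva with the bleb was collected after 3 hours (TL3h), 3 days (TL3d), or 14 days (TL14d), and the control group was conjunctiva of left eyes, which were not operated on. Each group held 3 libraries, 12 in all. Every operated eye had received all of these agents, so the operation and the drugs cannot be told apart. The labels do not tie a control eye to an operated eye or to a time, nor do they say that the 3 libraries of a group are separate animals, so the p-values measure the spread between these libraries.

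The total estimated count per library ranged from 27111348 to 38591425. Levels are CPM, the counts scaled to a common library size with TMM factors (0.77 to 0.78 for TL3h, 1.03 to 1.13 for the other groups). A count of 0 allows up to 3 counts, or 0.0712 to 0.124 CPM, which covers counting error only. The conjunctival epithelium markers, such as KRT5 and MUC4, were present in all groups, with summed levels of 8768 to 29712 CPM over the 12 libraries. TL14d replicate 1 stood apart from its group. Its mean correlation across genes was 0.883 with the other TL14d libraries and 0.959 with the control libraries. Control replicate 3 was the highest control library for all 8 members, and TL3d replicate 3 was the lowest TL3d library for 7 of them. The counts of members are therefore also given without such libraries. In bulk tissue, fewer cells of a type and less RNA per cell cannot be told apart.

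The alarmin genes lie side by side on chromosome 13 of OryCun2.0. S100A8 (gene ID 100008985) spans 39004025 to 39005124, S100A12 (gene ID 100008703) spans 39016932 to 39018848, and S100A9 (gene ID 100008704) spans 39032047 to 39034213 on the opposite strand, all within 30189 bases. FPR1 (gene ID 100009153, 265621309 to 265625292) and FPR2 (gene ID 100351550, 265633330 to 265635060) lie 8037 bases apart on the joined sequence of unplaced pieces. CSF3R (gene ID 100342746, 53000389 to 53015235) and NCF1 (gene ID 100008803, 232711422 to 232718222) are also on unplaced sequence. NCF4 (gene ID 100009359) spans 85024945 to 85038594 on chromosome 4, and LOC100349504 spans 30991513 to 30999674 on chromosome 12. Related genes can share reads, and the share of the 12 count values that were fractions was 33.3% for S100A8 and FPR2, 25.0% for S100A9 and LOC100349504, 8.33% for S100A12, FPR1, NCF1, and NCF4, and 0% for CSF3R.

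All 8 members rose at 3 hours. S100A8 was at 0.807, 0.976, and 25.8 CPM in control replicates 1, 2, and 3, and at 424, 943, and 362 CPM in the TL3h libraries. The lowest TL3h library was thus far above the highest control library, although control replicate 3 was 32.0-fold over control replicate 1. The group means were 9.19 ± 14.4 and 576 ± 319 CPM (SD, n = 3 each), a 62.7-fold difference in the fit (log2 fold change 5.97, standard error 1.70). The size of this fold rested on control replicate 3, since the log2 fold change was 9.28 without that library and 5.38 without TL3h replicate 2, the ends of its range over single libraries left out. Its adjusted p in the edgeR quasi-likelihood test, with Benjamini-Hochberg adjustment over 14835 genes, was 0.0159.

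S100A9, the partner of S100A8 in calprotectin, was at 0.570, 1.20, and 14.6 CPM in the control libraries and at 193, 429, and 148 CPM in the TL3h libraries. It had the same order of libraries as S100A8 in both groups. Its log2 fold change was 5.55 (standard error 1.41, edgeR adjusted p = 0.00925), or 8.13 without control replicate 3 and 4.93 without TL3h replicate 2. S100A12 was at 0.570, 3.55, and 12.9 CPM in the control libraries and at 186, 449.7, and 172 CPM in the TL3h libraries. TL3h replicate 2 was the highest library for all of these alarmins. The log2 fold change of S100A12 was 5.57 (standard error 1.61, edgeR adjusted p = 0.0174), or 6.99 without control replicate 3 and 4.94 without TL3h replicate 2. This call was lost without control replicate 1 (adjusted p = 0.0503) and without control replicate 2 (adjusted p = 0.0657), over a range of 2.57e-05 to 0.0657 among its alternatives.

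Among the receptors, CSF3R was at 1.09, 2.05, and 18.9 CPM in the control libraries and at 701, 607, and 228 CPM in the TL3h libraries. Here TL3h replicate 1 was the highest library, and replicate 3 was the lowest but still above every control. The log2 fold change of CSF3R was 6.12 (standard error 1.37, edgeR adjusted p = 0.00484), and 5.61 to 8.30 without single libraries. FPR1 was at 0.214, 0.450, and 3.84 CPM in the control libraries and at 70.4, 128, and 56.1 CPM at 3 hours. Its log2 fold change was 5.82 (standard error 1.62, edgeR adjusted p = 0.0144), with an adjusted p of 0.0549 without control replicate 2 (1.50e-05 to 0.0549 over its alternatives). Without single libraries its log2 fold change was 5.30 to 7.94. FPR2 held counts of 1, 7, and 98 in control replicates 1, 2, and 3, which are levels of 0.0237, 0.175, and 2.46 CPM. In the TL3h libraries it was at 183, 238, and 148 CPM, which spread by 1.60-fold from lowest to highest, the narrowest spread of the 8 members in that group. The log2 fold change of FPR2 was 7.74 (standard error 2.06, edgeR adjusted p = 0.0115), and its size depends on a control level of few counts, with 7.16 to 10.81 without single libraries. The row annotated as TREM1, LOC100349504, was at 0.214, 0.650, and 8.55 CPM in the control libraries and at 345, 127, and 103 CPM at 3 hours. Like CSF3R, it was highest in TL3h replicate 1. Its log2 fold change was 5.93 (standard error 1.26, edgeR adjusted p = 0.00366), or 5.16 without TL3h replicate 1 and 8.74 without control replicate 3. The highest values of CSF3R, FPR1, and FPR2 were likewise those without control replicate 3.

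The fold changes of the oxidase subunits were the smallest of the 8, a difference that was not tested. NCF1 was at 0.356, 0.625, and 0.853 CPM in the control libraries and at 5.42, 7.26, and 4.10 CPM in the TL3h libraries. No control library reached the TL3h range, and the control libraries spread by 2.40-fold, against 17.3-fold for CSF3R. The log2 fold change of NCF1 was 3.19 (standard error 0.83, edgeR adjusted p = 0.0105). NCF4 was at 1.80, 2.80, and 5.29 CPM in the control libraries and at 11.5, 14.1, and 5.74 CPM at 3 hours. TL3h replicate 3 was just above control replicate 3. The log2 fold change of NCF4 was 1.66 (standard error 0.53, edgeR adjusted p = 0.0273). It was over the threshold when control replicate 1, control replicate 2, TL3h replicate 1, or TL3h replicate 2 was left out (adjusted p 0.0702 to 0.0970) and with library size only (0.0738), over a range of 0.00700 to 0.0970 among its alternatives.

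**Figure D1:**
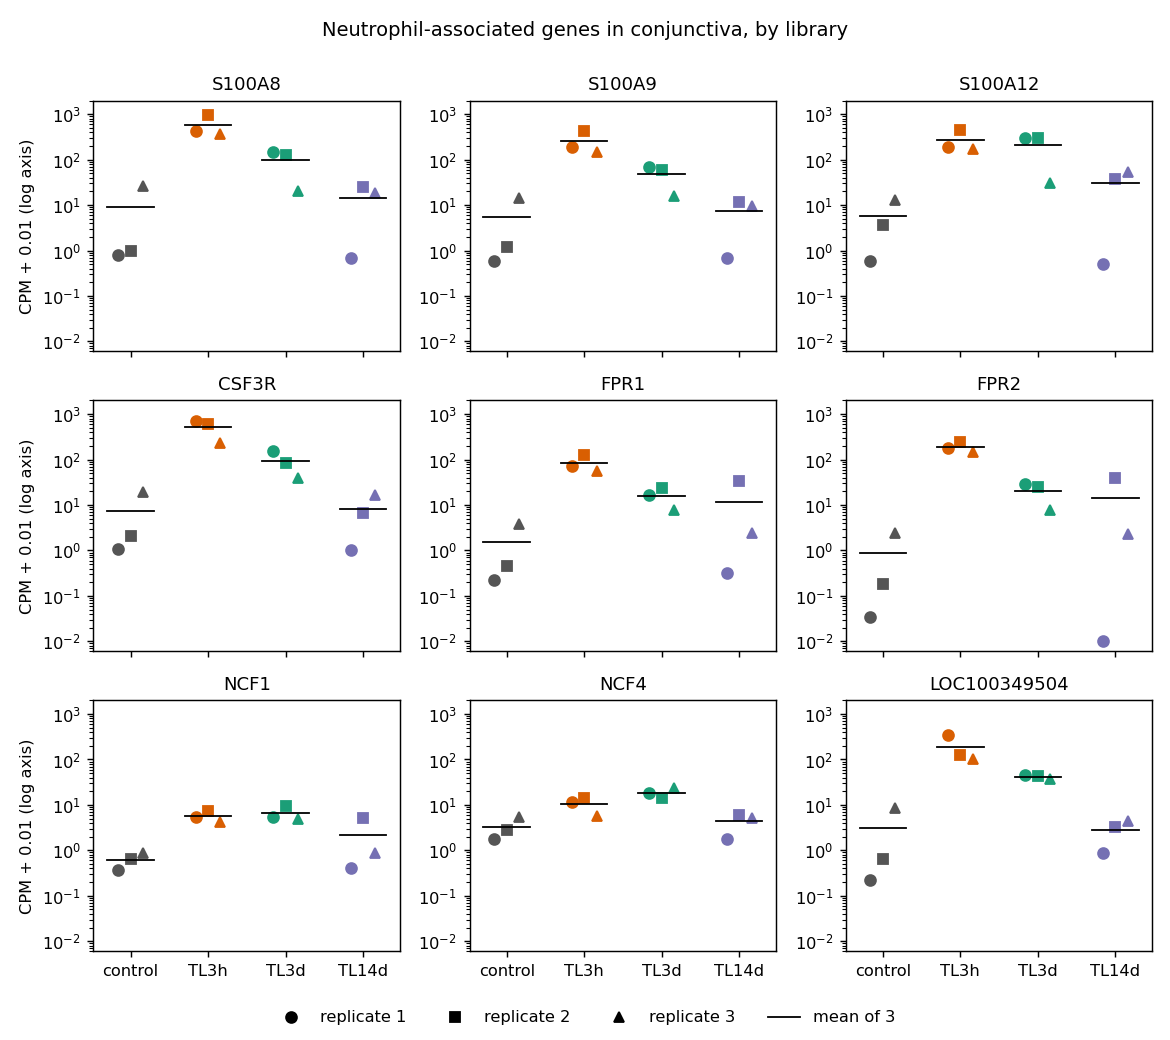
Level of each gene in each of the 12 libraries, as CPM + 0.01 on a log axis, with 1 panel per gene. Symbols mark the replicate number and horizontal lines the mean of 3 libraries. In every panel the 3 TL3h libraries lie above the 3 control libraries, while TL14d replicate 1 lies among the controls or below them.

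Of all 14835 genes tested, 23.2% were higher at 3 hours (45.4% changed in either direction), and 28.9% had all 3 TL3h libraries above all 3 control libraries. Both held for 8 of 8 members. The median log2 fold change was 5.70 for the members and 0.02 for all genes. With library size only, which moved the median of all genes to -0.47, 7 of 8 members and 51% of genes were past the threshold. Leaving out single libraries gave 5 to 8 members, with 5 without control replicate 2 and 6 without control replicate 1, where 35.2% and 34.9% of genes were past the threshold. All 8 were past the threshold when control replicate 3 and TL14d replicate 1 were left out together, a choice made after the data were seen, and 50.3% of 15056 genes were.

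At 3 days, S100A12, NCF1, and NCF4 were past the threshold, and the remaining 5 members were not. The share of all genes that were higher at this time was 10.6%. S100A12 was at 302, 299, and 31.1 CPM in TL3d replicates 1, 2, and 3, all above the control libraries. Its log2 fold change was 5.22 (standard error 1.59, edgeR adjusted p = 0.0474), and this call was lost in 13 of 18 alternatives, with adjusted p-values of up to 0.140. NCF1 was at 5.32, 9.33, and 4.95 CPM, all above the control libraries (log2 fold change 3.41, standard error 0.84, edgeR adjusted p = 0.0252). NCF4 was at 18.2, 14.1, and 23.6 CPM and also lay above every control library. TL3d replicate 3, the lowest TL3d library for the other members, was the highest for NCF4. The log2 fold change of NCF4 was 2.50 (standard error 0.55, edgeR adjusted p = 0.0181).

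S100A8 was at 151, 127, and 20.3 CPM in TL3d replicates 1, 2, and 3, of which replicate 3 lay below control replicate 3. Its log2 fold change was 3.44 (standard error 1.51, edgeR adjusted p = 0.130), and 2.89 to 6.78 without single libraries. S100A9 was at 69.1, 59.2, and 15.9 CPM, just above the highest control library (log2 fold change 3.14, standard error 1.27, edgeR adjusted p = 0.104). CSF3R was at 156, 82.3, and 39.6 CPM, at a log2 fold change of 3.66 (standard error 1.22, edgeR adjusted p = 0.0633). The spread of CSF3R within the TL3d group was 3.93-fold, and all of its libraries were above the controls. FPR1 was at 16.7, 23.9, and 7.74 CPM, at a log2 fold change of 3.42 (standard error 1.46, edgeR adjusted p = 0.121). FPR2 was at 29.6, 24.8, and 7.65 CPM, at a log2 fold change of 4.55 (standard error 1.80, edgeR adjusted p = 0.0997). Both receptors again lay above every control library and were lowest in TL3d replicate 3. LOC100349504 was at 45.7, 43.4, and 37.1 CPM, a spread of 1.23-fold, at a log2 fold change of 3.74 (standard error 1.14, edgeR adjusted p = 0.0477). Its call was lost in 12 of 18 alternatives, with adjusted p-values of up to 0.130.

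The TL3d libraries of 7 of the 8 members lay above all control libraries, against 23.8% of all genes. The median log2 fold change of the members was 3.43, against 0.00 for all genes. Without control replicate 3 the log2 fold changes were 6.78 for S100A8, 5.75 for S100A9, 6.67 for S100A12, 5.87 for CSF3R, 5.58 for FPR1, 7.66 for FPR2, and 6.59 for LOC100349504. Without TL3d replicate 1 that of CSF3R was 3.05. The number of members past the threshold moved with single libraries, as did the share of all genes, which was 17.6% with all libraries. The number was 0 without control replicate 1, control replicate 2, TL3d replicate 1, or TL3d replicate 2, where 3.25%, 2.46%, 2.97%, and 2.37% of genes were past it. It was 5 without control replicate 3 and without TL14d replicate 1, where 14.7% and 25% of genes were. Without control replicate 3 and TL14d replicate 1 together, 8 of 8 members were past it, where 25.6% of 15056 genes were. With DESeq2, 8 of 8 were past it as well, where 30.3% of genes were.

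**Figure D2:**
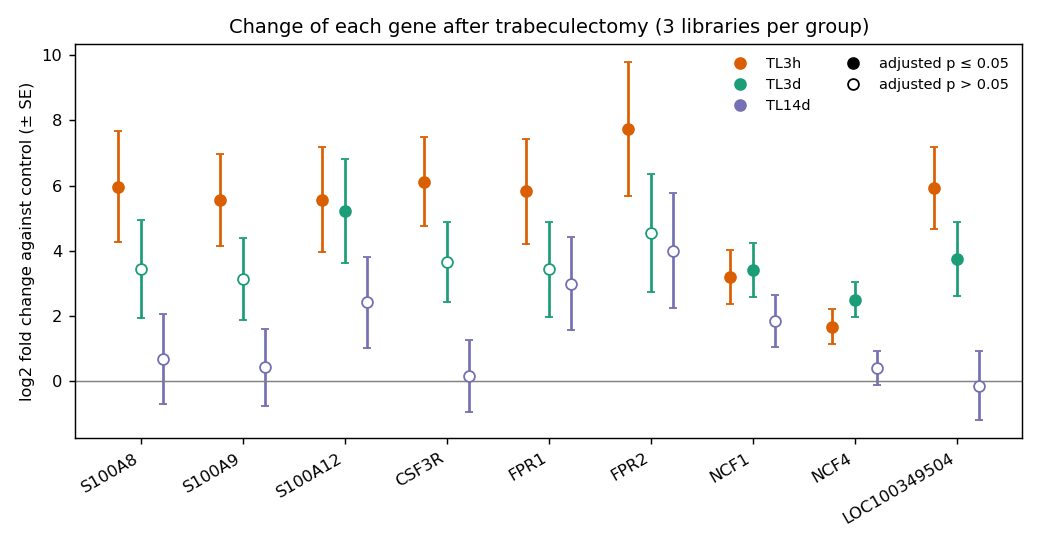
Log2 fold change of each gene against the control group for the TL3h, TL3d, and TL14d groups, with standard errors derived from the edgeR F statistic. Filled points have an adjusted p of 0.05 or less. All points at 3 hours are filled, at 3 days those of S100A12, NCF1, NCF4, and LOC100349504 are, and none is at 14 days.

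At 14 days, 0 of 8 members were past the edgeR threshold, as were 0 of all genes (0%), while 2 members, FPR2 and NCF1, and 1538 genes (10.4%) had an unadjusted p under 0.05. The libraries of this group differed widely. S100A8 was at 0.672, 24.6, and 18.5 CPM in replicates 1, 2, and 3, S100A9 was at 0.672, 11.7, and 9.51 CPM, and S100A12 was at 0.504, 37.1, and 52.5 CPM. In replicate 1, S100A8 and S100A12 were below the lowest control library and S100A9 was within the range of the control libraries. CSF3R was at 1.01, 6.63, and 16.8 CPM, and LOC100349504 was at 0.874, 3.26, and 4.33 CPM. FPR1 was at 0.303, 32.9, and 2.38 CPM, and FPR2 was at 0, 39.9, and 2.34 CPM. The formyl peptide receptors were thus high in TL14d replicate 2 alone, where they exceeded the highest TL3d library. NCF1 was at 0.403, 5.22, and 0.879 CPM and NCF4 was at 1.78, 6.004, and 5.21 CPM.

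The log2 fold changes at 14 days ran from 0.15 for CSF3R to 3.996 for FPR2, with adjusted p-values of 0.476 to 0.974 in the edgeR test. The TL14d and control libraries overlapped for all 8 members, and 6.03% of all genes had all 3 TL14d libraries above all 3 control libraries. Without TL14d replicate 1 and control replicate 3, S100A8, S100A9, FPR1, and FPR2 were past the threshold, where 6.64% of 15056 genes were. Their log2 fold changes in that fit were 4.58, 3.57, 5.72, and 7.69, with edgeR adjusted p-values of 0.0342, 0.0431, 0.0411, and 0.0332. These libraries were left out after their values had been seen, and the control and TL14d groups then held 2 libraries each, so this count describes how far they decide the result. Without single libraries the log2 fold change of S100A8 ran from 0.06 to 4.02 and that of FPR2 from 0.41 to 7.11, in both cases lowest without TL14d replicate 2 and highest without control replicate 3, and neither was past the threshold in any of these fits. With DESeq2 on all libraries, 0 of 8 members were past the threshold, where 2.49% of genes were.

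Between 3 hours and 3 days, 0 of 8 members were past the edgeR threshold, where 37.3% of all genes were, and 1 of 8 was with DESeq2 (CSF3R), where 44.9% of genes were. No member (0 of 8) had an unadjusted p under 0.05 in the edgeR test, while 47.5% of all genes did. The log2 differences were -2.53 for S100A8 (standard error 1.45, edgeR adjusted p = 0.193), -2.42 for S100A9 (standard error 1.22, edgeR adjusted p = 0.144), and -0.35 for S100A12 (standard error 1.32, edgeR adjusted p = 0.856). They were -2.47 for CSF3R, -2.40 for FPR1, and -3.19 for FPR2, with edgeR adjusted p-values of 0.118, 0.194, and 0.152. For NCF1 and NCF4 the differences were 0.22 and 0.84, with edgeR adjusted p-values of 0.838 and 0.229. S100A8, S100A9, CSF3R, FPR1, and FPR2 had all 3 TL3d libraries below all 3 TL3h libraries, which held for 28.5% of all genes. NCF4 had all 3 above, which held for 26.2%. In a fit of the 6 libraries of these groups alone, where 40.9% of 14245 genes were past the threshold, those 5 members were too, all lower at 3 days, with edgeR adjusted p-values of 0.00555 for FPR2 to 0.0443 for S100A8. Without control replicate 3 and TL14d replicate 1 together, 4 of 8 members and 43.3% of 15056 genes were past the threshold.

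Between 3 days and 14 days, again 0 of 8 members were past the edgeR threshold, where 2.24% of all genes were, and 2 members, CSF3R and NCF4, had an unadjusted p under 0.05, as did 22.6% of all genes. The log2 differences ranged from -3.51 for CSF3R (edgeR adjusted p = 0.134) to -0.44 for FPR1 (edgeR adjusted p = 0.873). NCF4 had the lowest adjusted p of the members in the edgeR test (log2 difference -2.10, standard error 0.54, adjusted p = 0.0705). S100A9, CSF3R, and NCF4 had all 3 TL14d libraries below all 3 TL3d libraries, against 14% of all genes. With DESeq2, where 12.5% of genes were past the threshold, CSF3R (adjusted p = 0.0103, and 0.0103 to 0.330 over its alternatives) and NCF4 (adjusted p = 0.00247, and 0.00247 to 0.189) were past it. Without control replicate 3 and TL14d replicate 1 together, 0 of 8 members and 2.13% of 15056 genes were past the edgeR threshold.

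Ratios of counts between members within a library do not depend on library scaling. They were formed for 9 pairs of genes chosen after their values had been seen, and with 3 libraries per group an exact permutation test cannot go below p = 0.10, so the values are a description. S100A12 held 0.439, 0.477, and 0.473 counts for each count of S100A8 in TL3h replicates 1, 2, and 3. In TL3d replicates 1, 2, and 3 it held 2.001, 2.35, and 1.53. The TL3d values were thus all above the TL3h values, which themselves were close together. The control libraries held 0.706, 3.64, and 0.499, a range that takes in all of the TL3d values and rests on 34 and 39 counts of S100A8 in the first 2 libraries. At 14 days the ratio was 0.750, 1.51, and 2.84, of which the first rests on 20 counts of S100A8. S100A9 held 0.409 to 0.456 counts for each count of S100A8 in the TL3h libraries and 0.457, 0.466, and 0.785 in the TL3d libraries, so here too all TL3d values were above the TL3h values. In the control libraries it held 0.706, 1.23, and 0.567. The calprotectin partners thus kept nearly 1 ratio in the TL3h libraries and in TL3d replicates 1 and 2.

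FPR2 exceeded FPR1 at 3 hours, with 2.59, 1.85, and 2.64 counts for each count of FPR1 in the TL3h libraries. It held 1.77, 1.04, and 0.989 in the TL3d libraries and 0.111, 0.389, and 0.641 in the control libraries. The control, TL3d, and TL3h ranges did not overlap, although the first 2 control libraries held 1 and 7 counts of FPR2. NCF4 held 0.0164 to 0.0251 counts for each count of CSF3R at 3 hours, 0.117 to 0.596 at 3 days, and 0.280 to 1.65 in the control libraries. The TL3h values were thus below those of every other library.

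**Figure D3:**
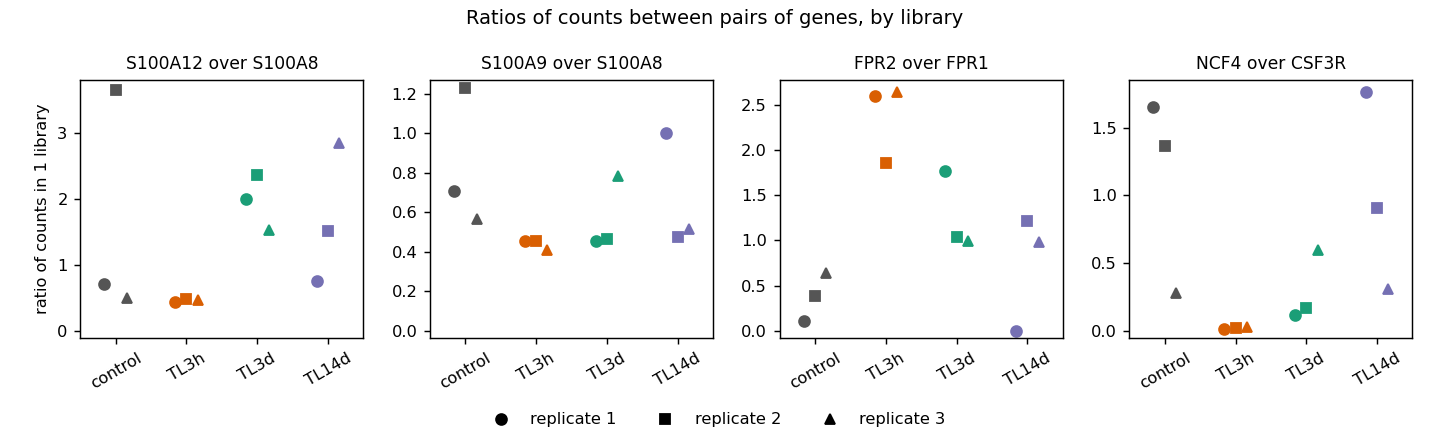
Ratio of the counts of 2 genes within each library, for 4 pairs of genes, with groups on the horizontal axis and symbols for the replicate number. The S100A12 over S100A8 ratio lies between 0.439 and 0.477 in the TL3h libraries and between 1.53 and 2.35 in the TL3d libraries, while S100A9 over S100A8 lies between 0.409 and 0.456 and between 0.457 and 0.785.

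Levels can be compared between genes only per transcript length, for which the deposited FPKM values were used. At 3 hours the order of the means was S100A8 (1101 ± 584 FPKM), S100A12 (485 ± 271), S100A9 (394 ± 222), CSF3R (114 ± 54.9), FPR2 (77.7 ± 16.6), FPR1 (49.2 ± 21.0), NCF1 (6.47 ± 1.69), and NCF4 (6.05 ± 2.36), each as SD with n = 3. S100A8 stood at percentile 99.8 of all genes in the table at that time, and NCF4 stood at percentile 66.0. Among neighbours in this order, the libraries of S100A9 and CSF3R did not overlap, nor did those of FPR1 and NCF1, while those of the other neighbours did. At 3 days S100A12 came first (543 ± 404 FPKM), before S100A8 (271 ± 191) and S100A9 (105 ± 62.8), and NCF4 (15.2 ± 3.52) came before FPR1 (13.2 ± 6.86) and FPR2 (12.03 ± 6.84). The order at 14 days again began with S100A12 (76.4 ± 67.5 FPKM). In the control group it began with S100A8 (23.6 ± 36.7) and ended with FPR2 (0.487 ± 0.744). All neighbours in the control, TL3d, and TL14d groups overlapped. The place of S100A9 has a limit, since the estimated counts of its 2 annotated transcripts added up to 1.20 to 1.73 times its gene count, and 1 of these transcripts carried 71.3% to 97.1% of them. NCF1 is annotated with a transcript of 709 bases.

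The other genes of the oxidase, from a list of 8 with 7 rows, moved in the same 2 comparisons as follows. At 3 hours 4 were higher, 1 was lower, and 2 did not pass the test, and at 3 days 3 were higher and 4 did not pass. The shares of all genes that were higher were 23.2% and 10.6%. The list's median log2 fold change was 1.28 and 1.62, against 0.02 and 0.00 for all genes. CYBB (gp91phox), the catalytic membrane subunit, was at 21.0 to 28.9 CPM at 3 hours and at 61.0, 90.0, and 129 CPM at 3 days, against 3.20 to 20.1 CPM in the control libraries. Its log2 fold change was 1.28 at 3 hours (edgeR adjusted p = 0.328) and 3.21 at 3 days (edgeR adjusted p = 0.0616), or 2.21 and 4.18 without control replicate 3. RAC2, the small GTPase of the complex, rose at both times (log2 fold change 1.87 and 1.62, edgeR adjusted p = 0.00719 and 0.0362). VAV1, an exchange factor for RAC proteins, rose by 1.86 and 2.47 on the log2 scale (edgeR adjusted p = 0.00235 and 0.00950). CYBA had no row of that name. Of 18 genes named from this and the other lists that passed the test at 3 days, 15 no longer passed without control replicate 1 or 2, and VAV1, CD68, and CCR2 passed in all 18 alternatives.

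Of 9 tested ligands, adaptors, and partners of the members, 6 were higher at 3 hours, against 23.2% of all genes, and 1 was lower. At 3 days 5 of these 9 were higher, against 10.6% of all genes. Their median log2 fold change was 2.44 and 2.59. CSF3, the ligand of CSF3R, was at 1.16, 1.08, and 7.02 CPM in the control libraries and at 170, 57.6, and 173 CPM at 3 hours, at a log2 fold change of 5.43 (standard error 1.05, edgeR adjusted p = 0.00222). It was lowest in TL3h replicate 2, in which S100A8 was highest. At 3 days CSF3 was at 28.7, 24.9, and 11.1 CPM (log2 fold change 2.80, edgeR adjusted p = 0.0635). PGLYRP1, a granule protein and ligand of TREM1, rose at 3 hours (log2 fold change 6.23, edgeR adjusted p = 0.00107) and at 3 days (4.43, edgeR adjusted p = 0.0185). TYROBP, the signalling adaptor of TREM1, rose at both times (log2 fold change 2.82 and 3.04, edgeR adjusted p = 0.00951 and 0.0230). Leaving out control replicate 3 gave log2 fold changes of 6.83 and 4.25 for CSF3, 7.81 and 6.05 for PGLYRP1, and 3.67 and 3.93 for TYROBP (3 hours first, then 3 days).

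ANXA1, a ligand of FPR1 and FPR2 that limits inflammation, rose from 1907 ± 389 to 6756 ± 698 CPM (SD, n = 3 each) at 3 hours (log2 fold change 1.82, edgeR adjusted p = 0.00162) and had an adjusted p of 0.0683 at 3 days. SAA3, an acute-phase protein of the family that binds FPR2, rose at 3 hours and 3 days (log2 fold change 2.44 and 2.59, edgeR adjusted p = 0.0209 and 0.0401). Of the receptors that bind S100 alarmins, TLR4 rose at both times (log2 fold change 3.82 and 2.80, edgeR adjusted p = 0.00559 and 0.0456), with values of 5.27 and 4.29 without control replicate 3. The 3-day call of TLR4 was lost in 11 of 18 alternatives, with adjusted p-values of up to 0.136 and log2 fold changes down to 2.33. AGER, which encodes RAGE, had a control mean of 16.2 ± 4.11 CPM and a mean of 11.01 ± 2.80 CPM after 3 hours (SD, n = 3 each), and it did not pass the test (log2 fold change -0.55, edgeR adjusted p = 0.108). TLR2 fell by 1.99 on the log2 scale at 3 hours (edgeR adjusted p = 0.000839). CD36, a scavenger receptor, rose by 2.26 on the log2 scale at 3 days (edgeR adjusted p = 0.0157). SAA3 lost its call in 3 of 18 alternatives at 3 hours (adjusted p 0.00184 to 0.0778) and in 9 of 18 at 3 days (0.00185 to 0.126).

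Of 14 tested genes of other neutrophil receptors and surface proteins, all 14 rose at 3 hours, with a median log2 fold change of 4.11 (3.98 with MMP25 at its lower bound). At 3 days 7 of 14 were higher (median 3.04). The shares of all genes that were higher at these times were 23.2% and 10.6%. CXCR1 and CXCR2, the receptors of interleukin 8, rose at 3 hours (log2 fold change 5.68 and 6.17, edgeR adjusted p = 0.00852 and 0.00602) and did not pass the test at 3 days (edgeR adjusted p = 0.117 and 0.0819, or 0.0233 to 0.281 and 0.0129 to 0.206 over their alternatives). Their log2 fold changes without control replicate 3 were 8.44 and 9.48 at 3 hours and 5.77 and 6.82 at 3 days, and both passed the 3-day test in that fit and with DESeq2. In the fit without TL3d replicate 1 they were 2.32 and 2.82 at 3 days. SELPLG, the ligand of P-selectin, rose at both times (log2 fold change 3.999 and 2.43, edgeR adjusted p = 0.00142 and 0.0354, or 4.63 and 3.10 on the log2 scale without control replicate 3), as did LOC100351865, annotated as integrin alpha-M (2.91 and 3.30, edgeR adjusted p = 0.0108 and 0.0221). MMP25, a protease of the neutrophil surface, was not counted in any control library (0 counts) and reached 1.10 ± 0.511 CPM at 3 hours and 0.666 ± 0.0519 CPM at 3 days (SD, n = 3 each).

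Of 10 tested neutrophil granule genes, 7 were higher at 3 hours, against 23.2% of all genes. At 3 days 4 of these 10 were higher, against 10.6% of all genes, and 1 was lower. Their median log2 fold change was 4.55 at 3 hours and 2.56 at 3 days (3.91 and 2.26 with genes at their bound where every library of either group compared held 3 counts or fewer). MPO, the defining enzyme of primary granules, held at most 4 counts in any library, and no row was named ELANE. ARG1 (arginase) rose from 0.191 ± 0.163 CPM to 133 ± 36.2 CPM at 3 hours (SD, n = 3 each, edgeR adjusted p = 0.00283). CAMP (cathelicidin) had a control mean of 0.0567 ± 0.0501 CPM, rose to 1.16 ± 0.777 CPM at 3 hours (edgeR adjusted p = 0.00262), and held 0.0562 ± 0.00585 CPM at 3 days (SD, n = 3 each). PADI4, which citrullinates histones, rose at both times (log2 fold change 3.56 and 5.06, edgeR adjusted p = 0.0209 and 0.0201), with a 3-day value of 4.15 that did not pass without TL3d replicate 1. BPI, a bactericidal granule protein, had a control mean of 0.0167 ± 0.0290 CPM and rose to 0.578 ± 0.297 CPM by 3 hours and 1.14 ± 0.204 CPM by 3 days (SD, n = 3 each, edgeR adjusted p = 0.0186 and 0.0249 against control). Of 3 tested genes from a list of neutrophil attractants, 2 were higher at 3 hours, the chemokines CXCL8 (1995 ± 329 CPM) and PPBP (23.0 ± 9.71 CPM, SD, n = 3 each). PPBP was also higher at 3 days. The other tested gene, CSF2, encodes a colony-stimulating factor, not a chemokine, and did not pass at 3 hours (edgeR adjusted p = 0.663).

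Markers of other cell types moved beside the members, and their part in these results was not tested. Of 12 monocyte and macrophage markers, 3 were higher and 2 were lower at 3 hours, and 5 were higher at 3 days, with a median log2 fold change of 0.84 and 2.36. The 3-hour counts were near the shares of all genes (23.2% higher, 45.4% changed in either direction). At 3 days 10.6% of all genes were higher. No marker row of these lists was at 0 in all libraries. Their CPM summed to 188 to 997 in control libraries, 861 to 1282 CPM at 3 hours, 1666 to 2542 CPM at 3 days, and 214 to 586 CPM at 14 days. It was thus higher at 3 days than at 3 hours, as were the values of NCF4 and CYBB. CD68 rose at 3 hours and at 3 days (log2 fold change 1.98 and 2.78, edgeR adjusted p = 0.00357 and 0.00971), as did CCR2 (2.19 and 3.95, edgeR adjusted p = 0.00357 and 0.00695), and MERTK fell by 0.94 on the log2 scale at 3 hours (edgeR adjusted p = 0.000875). The 8 members summed to 5.43 to 84.6 CPM in control libraries, 1125 to 2815 CPM at 3 hours, 151 to 748 CPM at 3 days, and 5.35 to 164 CPM at 14 days.

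Of 12 wound and cornified keratinocyte genes, 8 were higher at 3 hours and 6 at 3 days, against 23.2% and 10.6% of all genes. This list had a summed level of 61.3 to 84.6 CPM in the control group. Its median log2 fold change was 4.07 at 3 hours and 3.26 at 3 days. The summed level was 1015 to 1551 CPM at 3 hours, 644 to 2432 CPM at 3 days, and 52.4 to 2844 CPM at 14 days. This list was lowest in TL3d replicate 3 and TL14d replicate 1, in which S100A8 and S100A9 were also lowest for their groups. At 3 hours it was lowest in TL3h replicate 2 (1015 CPM), in which S100A8 and S100A9 were highest. Unlike the members, it was not raised in control replicate 3. KRT16 (edgeR adjusted p = 0.00138 at 3 hours and 0.0139 at 3 days) and TGM1 (edgeR adjusted p = 0.000418 at 3 hours) were among its higher genes.

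Of 3 tested blood cell genes, 1 was higher at 3 hours and 0 were at 3 days, against 23.2% and 10.6% of all genes. The summed level of the 7 rows of this list was 5.84 to 145 CPM in control libraries, 365 to 2486 CPM at 3 hours, 61.2 to 104 CPM at 3 days, and 13.2 to 75.4 CPM at 14 days. HBB2, a beta globin, was at 0.261, 24.3, and 130 CPM in the control libraries and at 349, 2380, and 375 CPM at 3 hours, at a log2 fold change of 4.32 (standard error 1.62, edgeR adjusted p = 0.0509). This value was 2.77 without TL3h replicate 2, 3.74 without control replicate 1, and 6.36 without control replicate 3, with adjusted p-values of 0.0244 to 0.185 over its alternatives, of which 3 of 17 were past the threshold. Control replicate 3 and TL3h replicate 2, the highest libraries of their groups for S100A8, S100A9, and S100A12, were also the highest for HBB2. They were highest as well for the summed monocyte and macrophage markers (997 and 1282 CPM) and for the summed lymphocyte markers, which were at 223, 519, and 2466 CPM in control replicates 1, 2, and 3 and at 1540, 3536, and 2002 CPM in the TL3h libraries. Such sums follow the most expressed genes of a list. The median log2 fold change of the 10 lymphocyte markers at 3 hours was 0.18, so their sum does not stand for each marker. At 14 days HBB2 was lowest in replicate 2 (6.87 CPM), in which FPR1 and FPR2 were highest.

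**Figure D4:**
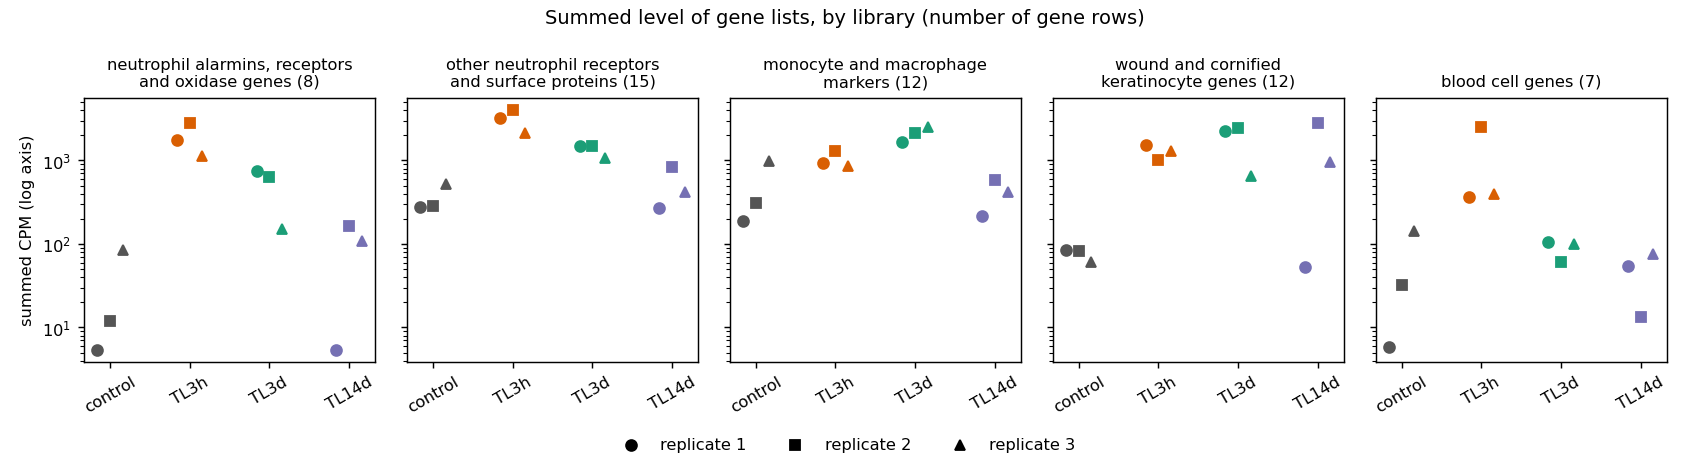
Summed CPM (log axis) of the 8 members and of 4 other gene lists in each library, with the number of gene rows in each title and symbols for the replicate number. The members and the other neutrophil receptors are highest at 3 hours, the monocyte and macrophage markers are highest at 3 days, and the blood cell genes peak in TL3h replicate 2.

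The genes with the pattern most like each member were ranked by Pearson's r of log2 CPM (pseudocount 0.5) over the 12 libraries, which include the group differences and share their scaling, among 13252 other genes. S100A8 and S100A9 were each nearest to the other (r = 0.997), and FPR1 and FPR2 were too (r = 0.994). CSF3R was nearest to CXCR2 and CXCR1 (r = 0.991 for both) and then to IDO1 (r = 0.987). After S100A9, S100A8 was nearest to MTHFD2 (r = 0.978) and RGS2 (r = 0.976). S100A12 had its highest values with PLEKHO1, CEACAM1, and RCAN1 (r = 0.955 for each), and its r with S100A8 was 0.950. NCF1 was nearest to XRCC6 (r = 0.976), PTPRE (r = 0.975), and HK3 (r = 0.974). NCF4 was nearest to TNFAIP8L2 (r = 0.984) and to BTK and SYK (r = 0.972 and 0.971), both kinases of myeloid and lymphoid cells, and its r with the other members ran from 0.701 for FPR2 to 0.866 for NCF1.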

How the data were processed

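RNA of 12 conjunctiva libraries (TruSeq Stranded mRNA, 150 bp paired-end reads) was mapped by the authors to OryCun2.0 with STAR 2.6.0c, and GeneData Profiler Genome made the values. The authors deposited estimated counts per gene and transcript, not scaled to library size, of which 22.7% in the gene table differed from a whole number by over 0.001. They also deposited FPKM values, divided by length and depth, which were used here to compare levels between genes. Whether counting used the strand is not given in the sources used here. The MicroShunt libraries were not analysed here.

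The estimated counts were rounded, filtered by filterByExpr (minimum count 10, total 15; 14835 of 20566 genes kept), scaled by TMM, and fitted in 1 quasi-likelihood model with all 12 libraries in edgeR 4.0.16 (R 4.3.3). P-values were adjusted by Benjamini-Hochberg over all genes tested, with a threshold of 0.05. Fold changes used a prior count of 0.125. Standard errors are not an output of this test and were derived as the absolute log2 fold change over the square root of its F statistic. The comparisons of the 3 time points share their control libraries, and those between time points share TL3d. Groups were taken from the sample labels. Alternatives were library size only, DESeq2 size factors, DESeq2 1.42.0, no filter, the replicate block, 6 libraries per fit, and each library left out. In counts simulated for TL3h against control with 200 of 14835 genes changed, 134 were recovered, 66 of 80 changed by 8-fold, with 7 false calls. In the real comparison 45.4% of genes were past the threshold, so the simulation does not measure error or scaling there. No 2 libraries of a group were copies, since their squared differences were at least 80.8 times the counting variance.

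The members and lists were chosen with earlier results of these data known. The genes named were the members, the 2 genes of each other list with the lowest adjusted p at 3 hours and at 3 days (at most 4, fewer for markers of other cell types), known partners of the members, the defining neutrophil markers, and the 3 genes most like each member. Some genes that this rule would name are not reported here. Rows without a symbol were matched by their annotation after the table was seen.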

Additional observations from a re-analysis of the deposited data

Results flagged for a closer look

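Of 41 named genes examined for a difference between the effects at 3 hours and 3 days, 0 of the 8 members and 6 other genes were past the threshold in the edgeR test of TL3d against TL3h, where 37.3% of all 14835 genes were. CSF3, the ligand of CSF3R, was lower at 3 days (log2 difference -2.63, standard error 0.92, adjusted p = 0.0457). CAMP was also lower (log2 difference -4.29, adjusted p = 0.00350), a fitted value that depends on the prior count because every TL3d library held 3 counts or fewer, as was TGM1 (log2 difference -2.79, adjusted p = 0.00223). TLR2 (log2 difference 1.69, adjusted p = 0.00258), CCR2 (log2 difference 1.76, adjusted p = 0.0122), and MERTK (log2 difference 0.63, adjusted p = 0.00957) were higher at 3 days than at 3 hours.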

How the results depend on the processing

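Each member's log2 fold change in each comparison was computed under 18 alternatives. At 3 hours no direction reversed, and 136 of 144 values kept their side of the threshold, while the 8 others lost it (those of S100A12, FPR1, and NCF4). At 3 days 21 of 144 lost it and 11 gained it. The number of members past the threshold at 3 hours was 7 with library size only and 5 to 8 without single libraries. At 3 days it was 8 with DESeq2 and 0 to 5 without single libraries. For TL3d against TL3h it was 5 with only the 6 libraries compared and 1 with DESeq2, and for TL14d against TL3d it was 2 with DESeq2 and 0 to 1 without single libraries. Without control replicate 3 and TL14d replicate 1 together, chosen after the data were seen, it was 8 at 3 days, 4 at 14 days, and 4 for TL3d against TL3h, where 25.6%, 6.64%, and 43.3% of all genes were past it. The cause was not tested.

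The replicate numbers were not taken to pair the libraries, since the labels give them no meaning and the correlation of same-numbered deviations from the group means was not over 0.1 in every pair (0.06 to 0.53 for replicate 1, -0.16 to 0.31 for replicate 2, and -0.15 to 0.50 for replicate 3). As a hint from the data toward pairing, 9 of 12 libraries were closest to their own number. With the replicate block, 8 members were past the threshold for TL3h, 2 for TL3d, and 0 for TL14d, where 46.8%, 18.3%, and 0% of all genes were. The log2 difference of S100A12 for TL3d against TL3h reversed to 0.065 with the replicate block and to 0.15 with library size only, and that of LOC100349504 at 14 days reversed to 0.30 with the block. Without single libraries, values that were not past the threshold changed sign. At 14 days against control they ran from -0.12 to 3.03 for S100A9, -0.93 to 2.36 for CSF3R, -0.16 to 5.14 for FPR1, and -0.70 to 2.70 for LOC100349504. For TL3d against TL3h they ran from -0.70 to 0.28 for S100A12 and -0.12 to 0.50 for NCF1. For TL14d against TL3d they ran from -3.58 to 0.13 for FPR1 and -4.13 to 0.032 for FPR2. At 3 days against control they ran from -0.36 to 0.033 for AGER and from -0.58 to 0.53 for CAMP, which rested on a few counts.

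Over all genes, the count past the threshold at 3 days was 2608, against 4471 with DESeq2, and 359 to 3778 without single libraries. At 14 days it was 0, against 367 with DESeq2 and up to 716 without single libraries. Of 31 named list genes, 27 passed at 3 hours, of which S100A11, PADI4, BPI, PPBP, and SAA3 lost this in at least 1 alternative. At 3 days 18 passed, and all but VAV1, CD68, and CCR2 lost it without control replicate 1 or 2. Depth limits the control levels of FPR2, FPR1, LOC100349504, and NCF1, which held 1 to 26 counts in control replicates 1 and 2.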

Other observations

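Of 12 tested S100 genes other than the alarmins, 4 were higher at 3 hours and 1 was at 3 days, against 23.2% and 10.6% of all genes. Their median log2 fold change was 0.66 and 0.30. S100A10, the partner of annexin A2, rose from 233 ± 27.0 to 602 ± 63.9 CPM at 3 hours (SD, n = 3 each, log2 fold change 1.37, edgeR adjusted p = 0.00499) and by 1.48 on the log2 scale at 3 days (edgeR adjusted p = 0.0169). S100A11 had a log2 fold change of 0.73 at 3 hours (edgeR adjusted p = 0.0154), which did not pass with library size only (adjusted p = 0.440).

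Of 5 tested eosinophil and mast cell markers, 3 were higher and 1 was lower at 3 hours and again at 3 days (median log2 fold change 2.34 and 3.599, or 3.01 at 3 days with 1 gene at its lower bound), where MS4A2, FCER1A, and HDC were the higher genes at 3 hours and MS4A2, FCER1A, and IL5RA at 3 days, named after their values were seen. The lower gene at both times was KIT, which fell from 144 ± 62.1 CPM to 22.1 ± 12.6 CPM at 3 hours and 18.9 ± 4.56 CPM at 3 days (SD, n = 3 each, edgeR adjusted p = 0.0116 and 0.0260) and held most of the list's summed level of 99.8 to 216 CPM in the control group and 16.5 to 44.4 CPM at 3 hours. Of 10 lymphocyte markers, 1 was higher and 1 was lower at 3 hours, and 1 was higher at 3 days (median 0.18 and -0.31). Of 12 conjunctival epithelium markers, 2 were higher and 2 were lower at 3 hours, and 2 were higher and 1 was lower at 3 days (median 0.16 and -0.0073). Beside these lists, 23.2% of all genes were higher at 3 hours and 10.6% at 3 days (45.4% and 17.6% changed in either direction).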
